A study of Mus musculus with 8 samples.

Results

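The 2 brain regions named in the sample labels of the RGFP109 experiment were compared: 2 amygdala-labelled libraries against 2 cortex-labelled libraries, with the treatment as a block. One library of each label came from mice given RGFP109, and the other from mice given vehicle (labelled NaCl). The paper uses RGFP109 as an inhibitor of histone deacetylase 3 and describes it as selective for histone deacetylases 1 and 3. All 4 libraries came from male C57BL/6 mice that had received photothrombotic stroke plus restraint stress (PTS + RS), and tissue was taken on Day 21. RGFP109 was given subcutaneously at 60 mg/kg once daily for 2 weeks. The series holds 8 libraries, and the other 4 are cortex-labelled libraries of the PTS + RS and RS groups without drug, which serve here as a reference. In both treatments the title's replicate 1 is labelled cortex and replicate 2 amygdala, so tissue label and replicate number cannot be told apart. It is not stated whether a library holds a single mouse or a pool, so all p-values measure the spread between these libraries, which may be technical. Of 28229 genes listed, 17855 had 10 or more counts in 2 or more of the 4 libraries. Among these, 9954 had the same direction of difference in both treatments, 4815 of them higher in the amygdala-labelled library (27%) and 5139 lower (28.8%).

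The amygdala is a group of nuclei below the temporal cortex that assigns emotional value to stimuli. Its basolateral part is built mostly of glutamatergic neurons related to those of the cortex. Its central and intercalated parts hold GABAergic neurons that share many genes with the medium spiny neurons of the neighbouring striatum, including dopamine receptors and opioid peptides. The cortex, in turn, is layered, with upper-layer neurons that connect cortical areas and deep-layer neurons that project below the cortex.

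The counts on genes summed to between 16134754 and 21712033 in the 4 libraries compared, and to between 15902013 and 18171227 in the other 4. On log2 CPM (counts scaled to a common normalised library size), the pair of amygdala-labelled libraries correlated at 0.992 across genes. The vehicle library labelled cortex correlated with the other 7 libraries at between 0.945 and 0.956, the lowest values of the series. The RGFP109 library labelled cortex was closest to the first RS library, at 0.989. Genes are not independent replicates, and these correlations are descriptions only.

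The markers of the labelled tissues were checked first, because they bear on every result. The vehicle library labelled cortex carried genes of the olfactory bulb. S100a5, a calcium-binding protein of olfactory sensory neurons, had 1131 counts there and 0 in each of the other 3 libraries. Omp, the olfactory marker protein, had 2040 counts there against 7 in the RGFP109 cortex library, 4 in the RGFP109 amygdala library and 7 in the vehicle amygdala library. Eomes, a transcription factor of mitral and tufted cells, had 2145 counts there and at most 5 elsewhere. The summed level of the 13 tested genes of the olfactory bulb list was 2010 CPM in this library and between 214 and 249 CPM in the other 7. This sum leaves out S100a5, Omp and Eomes, which had too few counts for the test. Hippocampal and choroid plexus genes were high in the RGFP109 library labelled cortex, as in most cortex-labelled libraries without drug, and low in the vehicle one. Ttr, the transthyretin gene of the choroid plexus, was at 1336 CPM in the RGFP109 cortex library and at 1.86 CPM in the vehicle one, against 1453 and 14.5 CPM in the PTS + RS libraries and 1626 and 3411 CPM in the RS libraries. Over its 13 tested genes, the summed hippocampus list was at 908 CPM in the RGFP109 cortex library and at 284.5 CPM in the vehicle one. It was at 367 and 348 CPM in the amygdala-labelled libraries and between 793 and 1330 CPM in the libraries without drug. The pair of cortex-labelled libraries thus differed from each other in the tissue markers they carried, and the part of this in the values below was not tested.

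No gene passed the threshold of the quasi-likelihood test in edgeR (adjusted p under 0.05 and at least a 2-fold difference) in either direction, and the smallest adjusted p was 0.184. At an unadjusted p under 0.05, 1627 genes were found. Of all tested genes, 6.1% were at that p and higher in the amygdala-labelled library in both treatments, and 3.01% were lower. With the spread taken from all 8 libraries, 175 genes were higher (0.98%) and 44 lower (0.246%), and DESeq2 on the 4 libraries gave 154 (0.863%) and 53 (0.297%). Of the 219 and 207 genes in these counts, 130 were in both. The 4 libraries alone gave a biological coefficient of variation of 26.6%, and the 8 gave 17.9%. The fit on 8 libraries has 3 residual degrees of freedom, against 1 with the 4 libraries. The added ones come from the replicate pairs of the PTS + RS and RS groups, which are not part of the comparison. All p-values given below with the spread from 8 libraries may therefore be too small. Described without a test, 541 genes (3.03%) were at least 2-fold higher in the amygdala-labelled library within both treatments, and 166 (0.93%) at least 2-fold lower. Of the 541, 245 reached 10 counts in the amygdala-labelled pair alone, so that the filter itself fixed their direction. Among all tested genes, 97 reached 10 counts in the cortex-labelled pair alone. For those of the 97 that are among the 166, the filter fixed the direction in the same way. In each treatment taken alone, 1825 genes differed 2-fold within RGFP109 and 3184 within vehicle. In 241 genes the ratio was 2-fold in opposite directions. Across genes the log2 ratios of the 2 treatments correlated at 0.298, and the medians over all genes were -0.01 and -0.00.

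**Figure D1:**
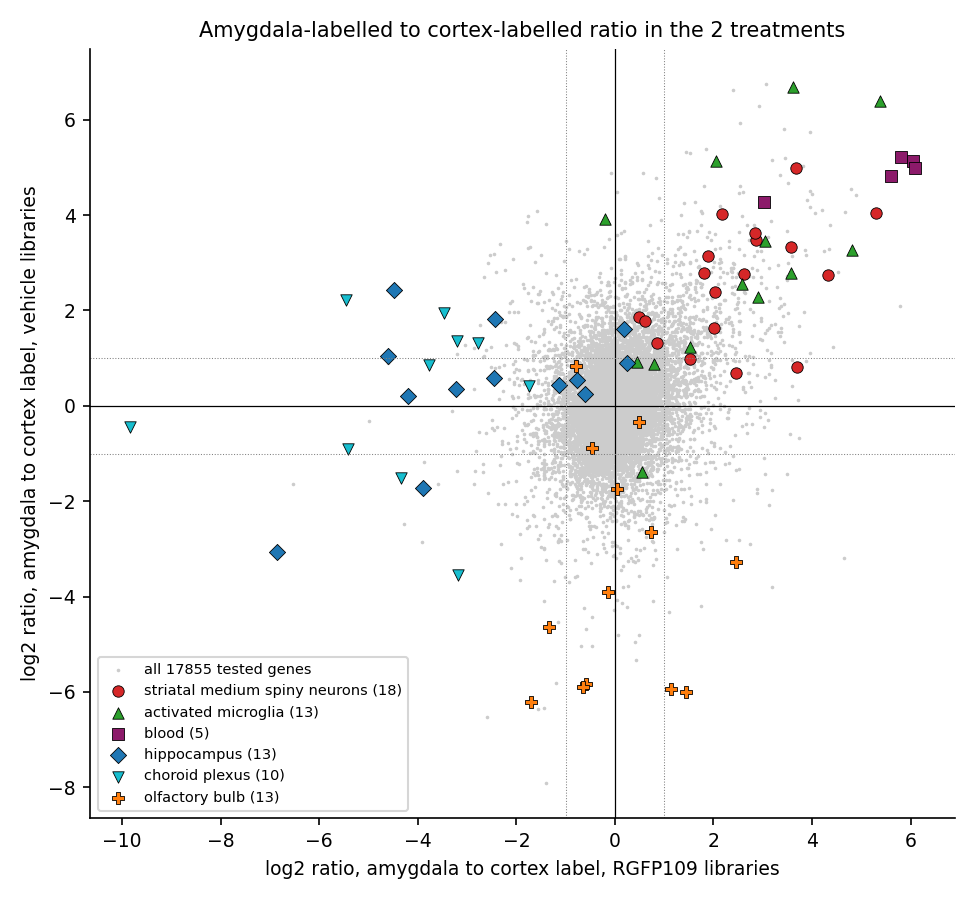
Log2 ratio of the amygdala-labelled to the cortex-labelled library within RGFP109 (x axis) and within vehicle (y axis), for all 17855 tested genes (grey) and for 6 marker lists (coloured), with dotted lines at 2-fold. Striatal and blood genes lie to the upper right in both treatments, whereas hippocampal and choroid plexus genes lie mainly to the left and olfactory bulb genes mainly at the bottom.

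Genes of striatal medium spiny neurons were higher in the amygdala-labelled libraries. All 18 listed genes were higher within both treatments, where 27% of all tested genes were. Of the 18, 12 were at least 2-fold higher in both, where 3.03% of all tested genes were. Their median log2 ratio was 2.32 within RGFP109 and 2.75 within vehicle. On each of the 18 genes both amygdala-labelled libraries lay above all 6 cortex-labelled libraries of the series, as 10.7% of all tested genes did. On 12 of them the lower amygdala-labelled library was over 2 times the highest cortex-labelled one, against 0.902% of all tested genes. The list summed to 2310 and 2474 CPM in the amygdala-labelled libraries and to between 579 and 735 CPM in the 6 others. 2 of the 18, Ido1 and Sh3rf2, reached 10 counts in the amygdala-labelled pair alone, which fixed their direction. Both are among the 12 genes that were 2-fold higher within both treatments, and the other 10 passed the filter otherwise. The list was chosen with earlier results of these data known, so its counts beside the shares of all genes are a description only. With the spread from 8 libraries 11 of the 18 passed the test as higher, where 0.98% of all tested genes did. By DESeq2 13 did, where 0.863% of all tested genes did. In bulk tissue, more cells of a type and more RNA per cell cannot be told apart.

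The dopamine receptors illustrate the size of the difference. Drd1, the receptor of the direct striatal pathway, was at 49.1 CPM in the RGFP109 amygdala library and 48.9 CPM in the vehicle one. In the cortex-labelled libraries Drd1 was at 6.598 CPM with RGFP109 and 4.22 CPM with vehicle, and in the 4 libraries without drug at between 3.76 and 6.00 CPM. The groups did not overlap, and the fitted log2 fold change was 3.19 ± 0.27 (SE, n = 2 per label). Drd2, the receptor of the indirect pathway, was at 38.9 and 37.6 CPM in the amygdala-labelled libraries against 3.14 and 3.60 CPM in the cortex-labelled ones, a log2 fold change of 3.49 ± 0.24. Adora2a, the adenosine receptor found beside Drd2, was at 45.0 and 49.8 CPM against 2.14 CPM in the RGFP109 cortex library and 7.26 CPM in the vehicle cortex library. All 3 receptor genes had an adjusted p between 0.00896 and 0.0198 in edgeR with the spread from 8 libraries.

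Ppp1r1b encodes DARPP-32, which integrates dopamine signals in medium spiny neurons. It was at 298 and 387 CPM in the amygdala-labelled libraries and at 41.0 and 31.02 CPM in the cortex-labelled ones. Rgs9, which speeds the end of G protein signals, was at 97.2 and 110.1 CPM against 15.6 and 15.99 CPM, and these cortex-labelled values lay within the range of 15.2 to 17.4 CPM of the 4 libraries without drug. Among the genes of cyclic nucleotide signalling, Pde10a was at 342 and 337 CPM against 96.4 and 48.5 CPM, and Adcy5 at 370.0 and 403 CPM against 204 and 160.0 CPM. The smallest differences of the list were those of Gng7 and Foxp1, with log2 ratios within RGFP109 of 0.49 and 0.62.

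**Figure D2:**
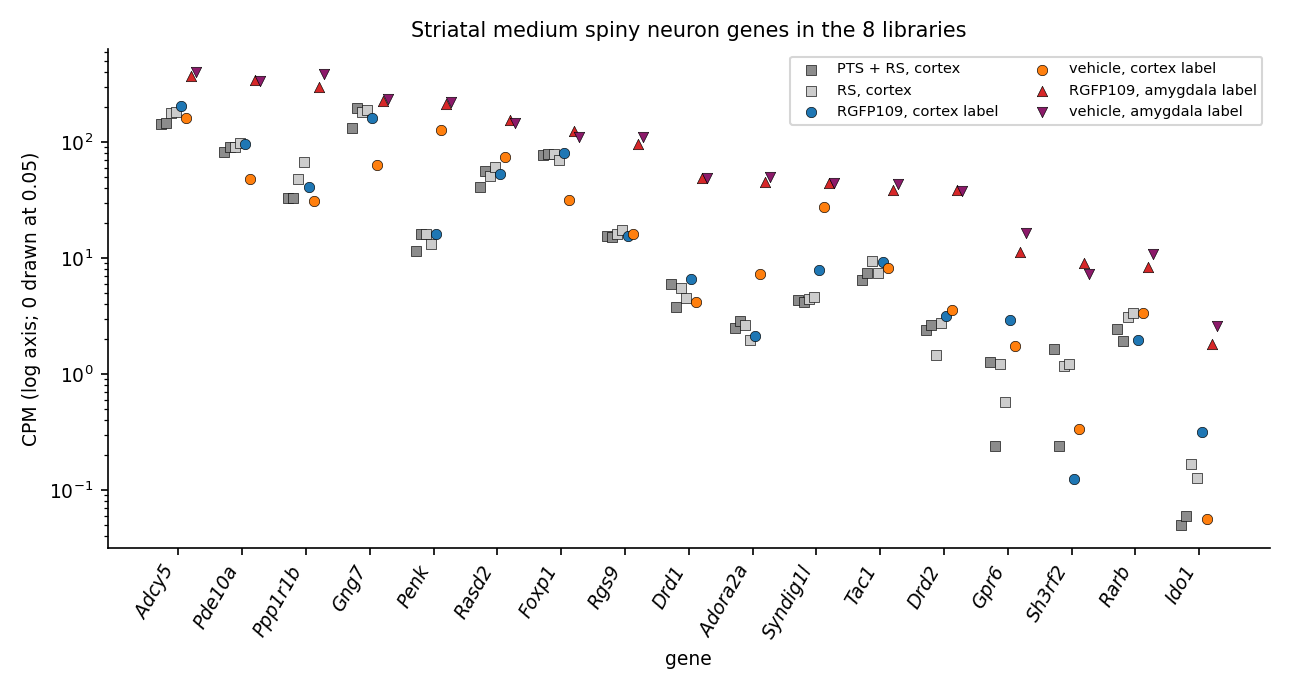
CPM on a log axis of 17 of the 18 striatal medium spiny neuron genes, ordered by their level in the amygdala-labelled libraries, with 1 point for each of the 8 libraries. On every gene shown both amygdala-labelled libraries (triangles) are the highest points, while for Penk and Syndig1l the vehicle library labelled cortex comes close to them.

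The gene with the smallest unadjusted p of those described here was Scn4b (ENSMUSG00000046480, chr9:45138395-45154152 on GRCm38, plus strand), the beta 4 subunit of voltage-gated sodium channels. It was at 320.2 and 292 CPM in the amygdala-labelled libraries and at 18.8 and 17.3 CPM in the cortex-labelled ones. The 4 libraries without drug were at between 16.3 and 27.4 CPM. Its log2 ratio was 4.07 within RGFP109 and 4.05 within vehicle, the fitted log2 fold change was 4.07 ± 0.21, and the adjusted p in edgeR was 0.184, or 3.79e-04 with the spread from 8 libraries. Scn4b is on no list and was named after its values were seen. It is one of the 25 genes with the largest smaller ratio among those with 5 or more CPM in both amygdala-labelled libraries.

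The RefSeq promoters of Scn4b and of 2 striatal genes, Drd2 and Rgs9, are shown, because their ratios were among the most even between the treatments. Each window runs from 250 bases before to 50 after the RefSeq start on GRCm38.p6, which need not be the start in the deposited gene models. Capitals mark the letters of a GC box, GGGCGG, on either strand (CCGCCC on the other). 
Scn4b, chr9:45138374-45138673, plus strand: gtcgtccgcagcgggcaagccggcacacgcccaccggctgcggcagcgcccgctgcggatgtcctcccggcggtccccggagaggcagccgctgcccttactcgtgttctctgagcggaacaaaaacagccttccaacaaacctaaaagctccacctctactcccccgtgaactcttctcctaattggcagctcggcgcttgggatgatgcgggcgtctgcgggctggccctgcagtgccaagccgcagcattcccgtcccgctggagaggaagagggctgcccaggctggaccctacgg
Drd2, chr9:49340153-49340452, plus strand: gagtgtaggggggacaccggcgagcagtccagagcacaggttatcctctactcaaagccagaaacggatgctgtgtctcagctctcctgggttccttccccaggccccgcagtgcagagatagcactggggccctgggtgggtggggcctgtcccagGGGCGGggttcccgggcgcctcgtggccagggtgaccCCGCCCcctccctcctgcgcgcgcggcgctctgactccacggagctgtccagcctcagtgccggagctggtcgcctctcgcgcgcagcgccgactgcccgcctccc
Rgs9, chr11:109298132-109298431, minus strand: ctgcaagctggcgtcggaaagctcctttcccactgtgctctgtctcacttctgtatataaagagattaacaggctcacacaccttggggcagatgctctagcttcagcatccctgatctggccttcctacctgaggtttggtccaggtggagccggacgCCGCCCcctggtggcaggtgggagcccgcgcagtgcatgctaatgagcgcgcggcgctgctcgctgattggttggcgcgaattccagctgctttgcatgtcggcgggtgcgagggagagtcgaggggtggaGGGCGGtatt
Of the 18 striatal genes 11 had a window in this table, 16 windows in all, and 11 of those windows held the GC box letters. Over all 32851 windows of the same length 35.7% held them. The window of Scn4b held none, and those of Drd2 and Rgs9 held 2 each. A match in letters is a description and not a binding site.

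Genes of cholinergic neurons were measured at low levels. Of 9 tested genes 4, with Chat, Slc18a3 and Lhx8 among them, reached 10 counts in the amygdala-labelled pair alone, so that their passing the filter fixed their direction, and they are given as a description. Of the other 5, Slc5a7 and Ecel1 were at least 2-fold higher in both treatments and above all 6 cortex-labelled libraries. The shares of all tested genes were 3.03% for the first and 10.7% for the second. Slc5a7, the choline transporter, was at 6.954 and 6.95 CPM against 0.88 and 0.39 CPM, and Ecel1, a membrane peptidase, at 18.2 and 22.7 CPM against 5.28 and 1.52 CPM. Chat, the enzyme that makes acetylcholine, had 76 and 106 counts in the amygdala-labelled libraries and 2 and 0 in the cortex-labelled ones. Slc18a3, the vesicular acetylcholine transporter encoded within the Chat locus, had 57 and 65 counts against 1 and 1. Because reads of Chat and Slc18a3 can overlap, their values are not independent. Lhx8, a transcription factor of forebrain cholinergic neurons, had 24 and 37 counts against 0 and 1. With 0 to 2 counts per cortex-labelled library, no fold is given for these 3 genes. Zic1, Zic4 and Ngfr were not higher in both treatments. Isl1, a transcription factor of striatal and cholinergic neurons, had 41 and 51 counts against 0 and 1, so it too passed the filter through the amygdala-labelled pair alone.

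Of 18 neuropeptides tested, 7 were higher and 3 lower in both treatments, and Tac1 and Pdyn were at least 2-fold higher. For this list and the receptors below, the shares of all tested genes were 27% higher and 28.8% lower. At least 2-fold, they were 3.03% higher and 0.93% lower. Tac1, which encodes substance P, was at 39.0 and 43.9 CPM against 9.30 and 8.22 CPM. Pdyn, the dynorphin precursor, was at 34.2 and 32.5 CPM against 8.17 and 2.53 CPM. Penk, the enkephalin precursor, was at 212 and 224 CPM in the amygdala-labelled libraries, but the cortex-labelled libraries were far apart, at 16.2 CPM with RGFP109 and 126 CPM with vehicle, so Penk was not 2-fold higher within vehicle. Among 25 neuropeptide receptors 6 were higher and 6 lower in both. Oprk1 and Oprm1 were 2-fold higher and Vipr2 2-fold lower. Tacr1, the receptor for substance P, was at 6.67 and 9.12 CPM against 2.33 and 10.5 CPM and had opposite directions. Oprk1, the kappa opioid receptor to which dynorphin binds, was at 13.7 and 13.4 CPM against 1.95 and 3.15 CPM, and Oprm1, the mu opioid receptor, was at 3.27 and 2.50 CPM against 0.69 and 0.96 CPM. With the spread from 8 libraries, Oprk1 had an adjusted p of 0.0198 in edgeR and Oprm1 of 0.081.

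The lists of amygdala nuclei gave a mixed picture. Of all tested genes, 27% were higher, 28.8% lower and 3.03% at least 2-fold higher in both treatments. Of 17 basolateral amygdala genes 4 were higher and 4 lower in both treatments, with medians of -0.86 within RGFP109 and 0.77 within vehicle, and Otof alone was 2-fold higher in both. Rspo2, a Wnt agonist of basolateral neurons, was at 17.8 and 13.95 CPM in the amygdala-labelled libraries, between the 40.6 CPM of the RGFP109 cortex library and the 1.97 CPM of the vehicle one. Of 18 genes of the central and intercalated nuclei 11 were higher in both, and 5 were 2-fold higher, among them Drd1, Isl1, Pdyn and Oprm1. Isl1 passed the filter through the amygdala-labelled pair alone, which fixed its direction. Drd1 also stands on the striatal list, and Isl1 on the list of subpallial transcription factors. Pdyn is also a listed neuropeptide and Oprm1 a listed neuropeptide receptor. Prkcd, a kinase of central amygdala neurons, was at 17.9 and 21.9 CPM against 15.4 and 10.98 CPM, within the range of 10.98 to 41.1 CPM of all 6 cortex-labelled libraries. Foxp2 was at 23.7 and 17.5 CPM, above the RGFP109 cortex library at 1.70 CPM and near the vehicle one at 15.9 CPM. Tshz1, a marker of intercalated cells, was at 39.6 and 36.05 CPM against 28.3 and 336 CPM. The peptide genes Cartpt, Crh and Sst of these nuclei lay at 5.93 and 9.23 CPM, 5.09 and 7.55 CPM, and 139 and 199 CPM, and each overlapped with the cortex-labelled libraries. Of 11 medial amygdala genes 6 were higher and 0 lower in both, with medians of 0.07 and 1.42. Of these genes Tac1, Ecel1 and Nkx2-1 were 2-fold higher. Nkx2-1 passed the filter through the amygdala-labelled pair alone, which fixed its direction. Tac1 also stands on the neuropeptide list and Ecel1 on the cholinergic list. Nkx2-1 is also on the lists of subpallial transcription factors and of the hypothalamus. Lhx9 and Npy2r, both on the medial amygdala list, were lower within RGFP109 and higher within vehicle.

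Several genes of cortical neurons were higher in the amygdala-labelled libraries than in the cortex-labelled ones. Of 14 upper-layer genes 8 were higher and 2 lower in both treatments, and 3 were 2-fold higher, Otof and Lamp5 among them. The corresponding shares of all tested genes were 27%, 28.8% and 3.03%. Lamp5, a membrane protein of upper-layer neurons, was at 137 and 139 CPM against 38.7 and 50.9 CPM. Otof was at 54.0 and 59.4 CPM against 14.1 and 4.62 CPM. Both genes lay above every cortex-labelled library, those without drug included. Tbr1, a transcription factor of deep-layer neurons, was at 154 and 130.3 CPM against 72.3 and 49.4 CPM, with an adjusted p of 0.0302 in edgeR with the spread from 8 libraries. Cux2, Fezf2 and Tle4 had log2 ratios of 0.52, -0.56 and -0.07 within RGFP109 and of -0.07, 3.28 and 0.14 within vehicle, so none of these 3 kept its direction. The glutamate transporter genes Slc17a7 and Slc17a6 were at 1328 and 1307 CPM and at 24.7 and 28.3 CPM in the amygdala-labelled libraries and overlapped with the cortex-labelled ones.

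Genes of activated microglia were higher in both treatments. Of 13 tested genes 11 were higher, 9 of them at least 2-fold, 4 of which reached 10 counts in the amygdala-labelled pair alone, with medians of 2.58 within RGFP109 and 2.79 within vehicle. Over all tested genes 27% were higher and 3.03% at least 2-fold higher in both. Cd5l, a scavenger protein of macrophages, had 95 and 342 counts in the amygdala-labelled libraries and 0 and 2 in the cortex-labelled ones. Gpnmb, a glycoprotein of phagocytes, was at 44.7 and 150.1 CPM against 5.28 and 13.5 CPM. Clec7a, the beta-glucan receptor, was at 7.19 and 10.5 CPM against 0.50 and 1.41 CPM. For Gpnmb, Lgals3, Cd5l and Mmp12 the vehicle library was the higher of the amygdala-labelled pair, and for Cst7 the RGFP109 library was, at 4.76 against 3.15 CPM. The PTS + RS libraries without drug also carried these genes, with 182 and 116 CPM of Gpnmb and 28.1 and 17.2 CPM of Clec7a, whereas the RS libraries were at 7.19 and 7.30 CPM and at 0.17 and 0.58 CPM. None of the 13 genes therefore separated the amygdala-labelled libraries from all 6 cortex-labelled ones. These groups differ in label and in treatment, and the part of each was not tested.

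Among 16 genes of all microglia 12 were higher and 3 lower in both treatments, and 5 were 2-fold higher, namely C1qa, C1qb, Ctss, Trem2 and Tyrobp. The corresponding shares of all tested genes were 27%, 28.8% and 3.03%. None of the 16 lay above all 6 cortex-labelled libraries in both amygdala-labelled ones. The list summed to 836 and 970 CPM in the amygdala-labelled libraries and to 538 and 606 CPM in the cortex-labelled pair. Without drug it summed to 2060 and 1755 CPM in the PTS + RS libraries and to 465.5 and 417 CPM in the RS libraries. C1qa, a chain of the first complement component, was at 91.4 and 118 CPM against 36.9 and 32.7 CPM. Cd68, a lysosomal protein of phagocytes, was at 17.6 and 26.9 CPM against 8.86 and 6.31 CPM. The homeostatic genes were closer between the labels: Tmem119 was at 27.9 and 29.4 CPM against 20.2 and 18.0 CPM, P2ry12 at 25.2 and 23.4 CPM against 32.2 and 25.6 CPM, and Cx3cr1 at 44.5 and 34.9 CPM against 42.3 and 35.3 CPM. Lcn2 and Lyz2, both products of myeloid and reactive cells outside the lists, were at 12.7 and 26.2 CPM and at 83.4 and 350.2 CPM in the amygdala-labelled libraries, against at most 1.57 and 15.65 CPM in the cortex-labelled pair.

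All 5 blood genes were at least 2-fold higher in both treatments, where 3.03% of all tested genes were. Of the 5, 2 reached 10 counts in the amygdala-labelled pair alone, which fixed their direction. Hba-a1, an alpha globin, was at 49.1 and 158 CPM in the amygdala-labelled libraries and at 0.63 and 4.34 CPM in the cortex-labelled ones. Hbb-bs, a beta globin, was at 63.9 and 229 CPM against 0.82 and 7.04 CPM. The paired globin genes are near-identical copies, so reads may be split between them. The blood list summed to 127 and 437.5 CPM against 1.63 and 12.8 CPM, and to between 37.2 and 61.5 CPM in the libraries without drug. Globin levels thus went with the label in these 4 libraries, and the part of blood in the microglial and immune values was not tested. Cd4 and Trbc2, a co-receptor and a receptor chain of T cells, had 250 and 193 counts and 183 and 132 counts in the amygdala-labelled libraries, against at most 8 counts in the cortex-labelled ones. Cd4 and Trbc2 reached 10 counts in the amygdala-labelled pair alone, which fixed their direction. They were named after their values were seen and are given as a description.

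Glial and vessel genes had smaller differences. Over all tested genes 27% were higher and 28.8% lower in both treatments. Of 16 oligodendrocyte genes 11 were higher and 2 lower in both, with none 2-fold, and Mbp, the myelin basic protein gene, was at 1985 and 2323 CPM against 1418 and 1241 CPM. These values lay below the 2391 to 3185 CPM of the 4 libraries without drug. Gfap, the intermediate filament of astrocytes, was at 687 and 621 CPM against 435 and 287 CPM, while the astrocyte list as a whole had medians of 0.07 and 0.03. Of 12 endothelial genes 3 were higher and 7 lower in both, with medians of -0.34 within each treatment, and 5 lay below all 6 cortex-labelled libraries, as 9.59% of all tested genes did. Kdr, the main receptor for vascular endothelial growth factor, was at 8.49 and 7.28 CPM against 26.02 and 23.8 CPM, and below all 6 cortex-labelled libraries by more than 2-fold, as 0.252% of all tested genes were. Its log2 fold change was -1.68 ± 0.23, with an adjusted p of 0.0141 in edgeR with the spread from 8 libraries. Pecam1 and Cdh5, which mark all endothelial cells, were at 21.75 and 21.2 CPM and at 17.2 and 15.85 CPM, against 21.2 and 18.9 CPM and 18.6 and 21.96 CPM, so Cdh5 was lower in both treatments and Pecam1 in neither.

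Further genes with the largest and most even differences were named after their values were seen. Plin4, a lipid droplet coat protein, was at 55.3 and 53.75 CPM in the amygdala-labelled libraries and at 5.28 and 1.75 CPM in the cortex-labelled ones. Gucy1a2, a subunit of the nitric oxide receptor guanylate cyclase, was at 24.6 and 18.9 CPM against 1.57 and 1.86 CPM, but the RS libraries reached 12.4 and 12.6 CPM. Xkr4, a scramblase family member, was at 56.8 and 41.9 CPM against 9.24 and 7.09 CPM, whereas the 4 libraries without drug were at between 29.2 and 47.7 CPM. For Xkr4 the cortex-labelled pair of the drug experiment lay below these 4, the vehicle amygdala library lay among them and the RGFP109 amygdala library above them. Six3, a transcription factor of the ventral forebrain, was at 7.23 and 11.8 CPM against 0.69 and 0.23 CPM.

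Genes that were lower in the amygdala-labelled libraries included Fibcd1 and Dsp of the hippocampus list. Tspan18, a tetraspanin, was at 2.24 and 2.28 CPM in the amygdala-labelled libraries and at 35.25 and 16.95 CPM in the cortex-labelled ones, with between 29.6 and 46.4 CPM in the libraries without drug. Slc9a4, a sodium-proton exchanger, was at 0.79 and 1.41 CPM against 17.2 and 8.33 CPM. Pcdh20, a protocadherin, was at 20.25 and 16.4 CPM against 94.6 and 68.2 CPM, a log2 fold change of -2.15 ± 0.19 and an adjusted p of 0.00676 in edgeR with the spread from 8 libraries. Fibcd1, a gene abundant in the hippocampal field CA1, was at 12.4 and 10.9 CPM against 183 and 35.75 CPM. Dsp, a desmosome protein of dentate granule cells, had 5 and 4 counts against 626 and 46 counts. These 5 genes were chosen for their low ratios. On each of them the amygdala-labelled libraries also lay below the 4 libraries without drug. Gabra5 and Cpne6, the first a GABA receptor subunit and the other a calcium-binding protein of postsynaptic sites, were at 57.5 and 50.2 CPM and at 194 and 203.5 CPM, against 170.1 and 123 CPM and 599 and 508 CPM. Aqp1, a water channel of the choroid plexus and of olfactory ensheathing cells, was at 1.26 and 3.04 CPM against 12.25 and 36.3 CPM, but the second PTS + RS library was lower than both, at 0.54 CPM. Stoml3, a stomatin family protein of sensory neurons, had 3 and 3 counts against 22 and 441 counts. Scgn, a calcium sensor of olfactory bulb interneurons, had 3 and 6 counts against 11 and 562 counts. Dsp, Stoml3 and Scgn passed the filter through the cortex-labelled pair alone, which fixed their direction. Their lower counts are given as a description.

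**Figure D3:**
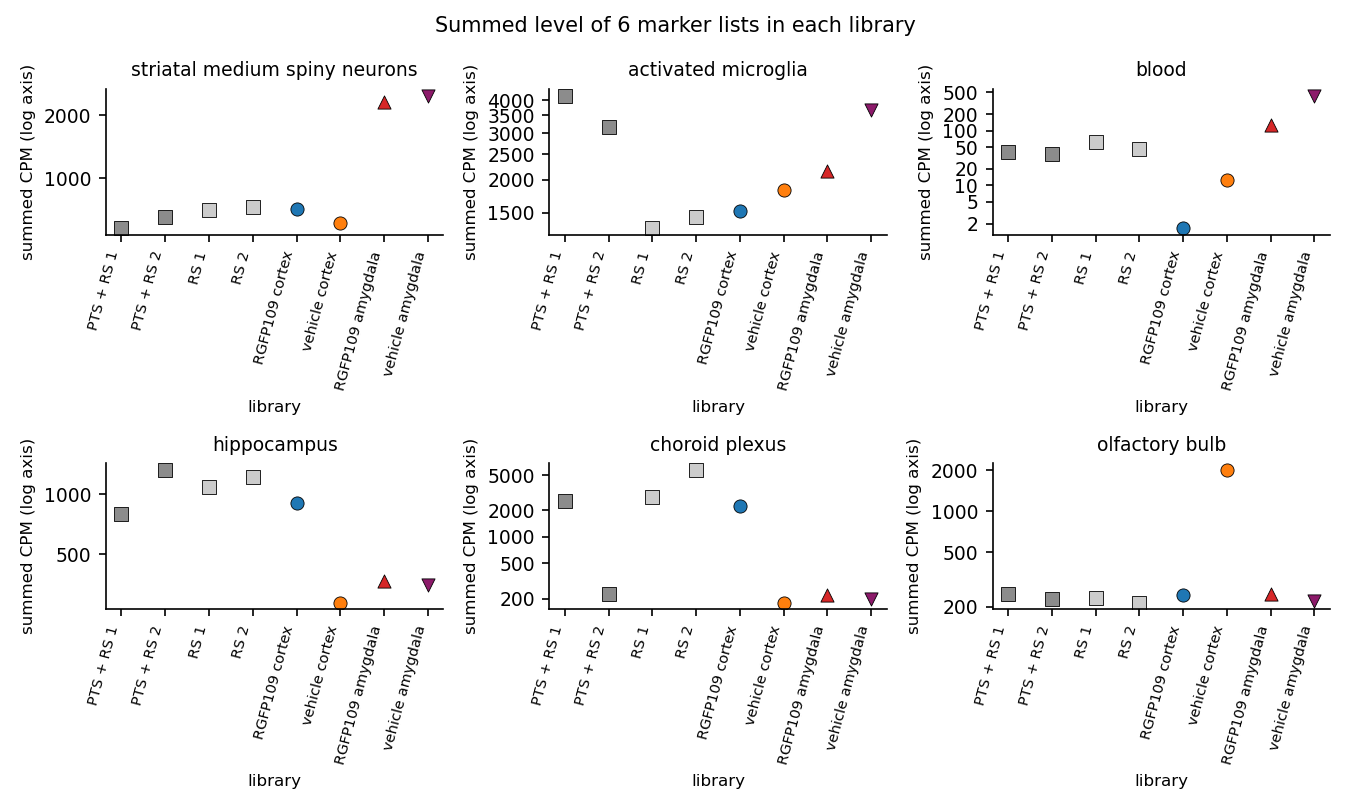
Summed CPM of the tested genes of 6 marker lists in each of the 8 libraries, on log axes that differ between panels. The striatal list is high in the amygdala-labelled libraries (2310 and 2474 CPM), the olfactory bulb list in the vehicle library labelled cortex alone (2010 CPM), and the hippocampus list in 5 of the 6 cortex-labelled libraries.

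The ratios of the 2 treatments were far apart for many genes. Each treatment and label holds 1 library, so a fit of this difference takes its spread wholly from the replicate pairs of the 4 libraries without drug and compares these libraries, not the treatments. By that fit in edgeR 1272 genes (7.12%) had an adjusted p under 0.05. Over all tested genes, 27% were higher and 28.8% lower in both treatments, and 44.25% were neither. Of the 13 hippocampal genes tested, 2 were higher and 2 lower in both and 9 had opposite directions, with medians of -2.45 within RGFP109 and 0.54 within vehicle. For the 10 choroid plexus genes, 0 higher and 4 lower in both, the medians were -3.62 and 0.64, and Ttr itself was at 1.35 and 1.36 CPM in the amygdala-labelled libraries. For the 13 olfactory bulb genes, 0 higher and 6 lower in both, they were -0.14 and -3.90. On each of these 3 lists 1 gene reached 10 counts in the cortex-labelled pair alone, which fixed its direction. Th, which makes dopamine precursors in bulb interneurons, was at 1.40 and 2.77 CPM against 0.44 and 182 CPM. Of 14 GABAergic genes 2 were higher and 3 lower in both, and the vehicle library labelled cortex was the highest of the 4 for the genes that make and load GABA: Gad1 was at 346 and 321 CPM against 314 and 1556 CPM, Gad2 at 226 and 210 CPM against 152 and 437 CPM, and Slc32a1 at 85.6 and 105.5 CPM against 67.0 and 194 CPM. Ranked by the smaller of their opposite ratios, the first 3 genes were Trh, Gm14434 and Col24a1. Trh, the thyrotropin-releasing hormone precursor, was at 7.37 and 6.79 CPM against 0.19 and 61.9 CPM. Gm14434, a predicted gene, was at 4.90 CPM with RGFP109 and 0.33 CPM with vehicle in the amygdala-labelled libraries, and at 0.44 and 5.91 CPM in the cortex-labelled ones. Col24a1, a fibrillar collagen, was at 9.47 and 8.85 CPM against 1.32 and 66.4 CPM.

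**Figure D4:**
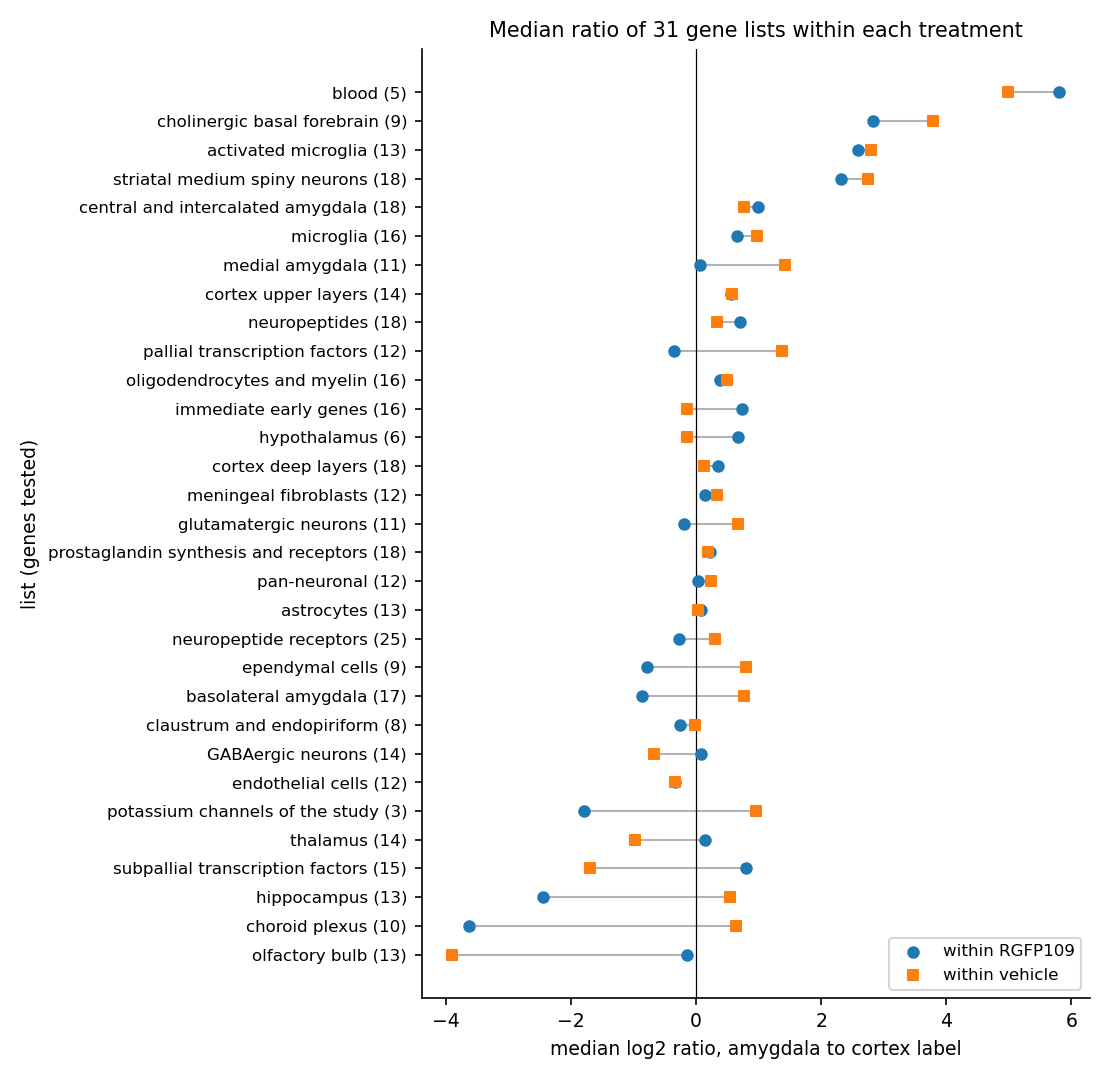
Median log2 ratio of the amygdala-labelled to the cortex-labelled library for 31 gene lists, within RGFP109 (circles) and within vehicle (squares), with the number of tested genes in brackets. The blood, cholinergic, activated microglia and striatal lists have both medians above 2, while the choroid plexus and hippocampus lists lie on opposite sides of 0 in the 2 treatments. The medians include genes whose direction the filter fixed, with 10 counts in the amygdala-labelled pair alone. These are 2 of 5 blood, 4 of 9 cholinergic, 4 of 13 activated microglia and 2 of 18 striatal genes.

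Hdac3, a target of the drug, and the prostaglandin genes had small differences between the labels. Hdac3 was at 74.7 and 77.9 CPM in the amygdala-labelled libraries and at 89.0 and 78.9 CPM in the cortex-labelled ones, with a log2 fold change of -0.15 ± 0.18 and an adjusted p of 0.889 in edgeR. The 4 libraries without drug spanned 71.3 to 80.5 CPM. Of 18 genes of prostaglandin synthesis and reception 7 were higher and 4 lower in both treatments, none 2-fold, with medians of 0.23 and 0.20. For this list and the immediate early genes below, the shares of all tested genes were 27% higher and 28.8% lower. Ptgs1, the cyclooxygenase 1 gene, was at 16.05 and 16.6 CPM against 14.1 and 9.91 CPM. Ptger2, the EP2 receptor gene, was at 0.28 and 0.60 CPM against 0.19 and 1.35 CPM, which is between 3 and 24 counts per library. Of 3 genes that the study groups with potassium channels, Stoml3 is given above, and the filter fixed its direction. Trpv4 was at 3.36 and 3.855 CPM against 11.75 and 1.91 CPM, and Kcnk4 at 14.4 and 16.45 CPM against 13.3 and 3.94 CPM. Among 16 immediate early genes 5 were higher and 3 lower in both. Egr3 was at 199.9 and 230.2 CPM against 116 and 113 CPM, while Fos was at 45.5 and 33.6 CPM, between the 18.6 CPM of the RGFP109 cortex library and the 74.6 CPM of the vehicle one.

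The remaining lists held few genes that were 2-fold different in both treatments. Over all tested genes, 27% were higher and 28.8% lower in both, with 3.03% at least 2-fold higher and 0.93% at least 2-fold lower. Of 14 thalamic genes 3 were higher and 6 lower in both, and Vipr2, Calb2 and Ntng1 were 2-fold lower. Of 12 pallial transcription factors 5 were higher and 0 lower, and 2 were 2-fold higher, Tbr1 among them. Of 15 subpallial ones 6 were higher and 2 lower, with Isl1, Lhx8, Six3 and Nkx2-1 2-fold higher, 3 of which reached 10 counts in the amygdala-labelled pair alone. Of 6 hypothalamic genes 3 were higher and 1 lower, with Nkx2-1 and Irs4 2-fold higher, both with 10 counts in the amygdala-labelled pair alone, and of 8 claustrum genes 1, Oprk1, was higher and 2 were lower. Of 9 ependymal genes 1, Tekt4, was higher and 3 were lower, and of 12 fibroblast genes 5 were higher, with Col3a1 2-fold, and 2 lower. Of 18 deep-layer genes 5 were higher and 3 lower, of 11 glutamatergic genes 3 and 1, of 12 pan-neuronal genes 5 and 1, and of 13 astrocyte genes 6 and 3. Of the listed genes, 25 that are in the table had too few counts for the test, among them S100a5, Omp and Eomes, which 1 library alone carried.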

How the data were processed

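The authors aligned reads to GRCm38 with STAR 2.4.0 and counted them per gene with HTSeq 0.6.1, per the labels. The authors deposited raw read counts per gene and FPKM (scaled for gene length and depth), of which the counts were tested. The sources differ on the library kit and on the duration of RGFP109. The 8 other per-sample columns and the authors' columns of fold changes and p-values were not used. The 4 counts columns of the RGFP109 table were scaled by TMM and tested in edgeR 4.0.16 (R 4.3.3), with treatment as a block and Benjamini-Hochberg adjustment. CPM carry no prior count, and log2 ratios within treatments used a prior count of 2. The 4 other libraries were joined by gene position, which matched 28229 of 28229 genes, for levels and for the spread from 8 libraries. DESeq2 1.42.0 and limma 3.58.1 were alternatives, and figures used Python 3.11.15 with matplotlib 3.10.9. The fits were tested on simulated data.

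Named genes were called genes (none), defining genes of tissues and of the study, and the 3 genes with the largest opposite ratios. Others were named after their values were seen: members of the lists, and the 25 genes in each direction with the largest smaller ratio. The 25 had 5 or more CPM in both libraries of the higher label, and symbols of predicted or clone-based genes were left out. Members and lists were chosen with earlier results of these data known. Some members are counted but not reported by name here.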

Additional observations from a re-analysis of the deposited data

Results flagged for a closer look

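Of the defining genes and the 3 genes with the largest opposite ratios, 13 are listed for amygdala to cortex ratios far apart between the treatments. They were selected by a fit in edgeR whose spread comes wholly from the replicate pairs of the 4 libraries without drug, since each treatment and label holds 1 library, so it compares these libraries and not the treatments, and no p is given. The ratio within RGFP109 was above that within vehicle, as a log2 difference, for Gad1 2.41, Gad2 1.63, Slc32a1 1.23, Tshz1 3.71, Foxp2 3.66, Adora2a 1.61, Penk 2.89, Th 7.69, Trh 8.42 and Col24a1 5.74. It was below for Fezf2 -3.87, Rspo2 -4.01 and Sst -2.64. Ttr was not selected by this fit, though its log2 ratios were -9.85 within RGFP109 and -0.44 within vehicle. Other named genes were not screened.

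For 13 gene lists the medians within the treatments had opposite signs, and these differences were not tested. The median within RGFP109 minus that within vehicle, on the log2 scale, was positive for subpallial transcription factors 2.49, thalamus 1.11, hypothalamus 0.81, GABAergic neurons 0.76 and immediate early genes 0.87. It was negative for pallial transcription factors -1.73, basolateral amygdala -1.62, hippocampus -2.99, glutamatergic neurons -0.86, neuropeptide receptors -0.58, potassium channels of the study -2.74, choroid plexus -4.26 and ependymal cells -1.59. The olfactory bulb genes of the vehicle library labelled cortex, and the hippocampal and choroid plexus genes that the RGFP109 library labelled cortex shares with most libraries without drug, go with several of these lists, and their part was not tested.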

How the results depend on the processing

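With the same rule for calls, no filter beyond 1 count gave 187 higher and 46 lower genes, DESeq2 154 and 53, and the spread from all 8 libraries 175 and 44. DESeq2's size factors, filterByExpr, limma-voom, a model without treatment and no fold limit gave 0 and 0, as edgeR did. Leaving out 1 library at a time, which drops treatment from the model and assumes that the lone library of a label varies like the other label, gave 0 to 1401 higher and 0 to 998 lower genes: 1401 and 998 without the RGFP109 cortex library, 755 and 363 without the vehicle cortex library, and 0 and 0 without either amygdala-labelled library. In 2 alternatives chosen after seeing the data, the spread came from all 8 libraries and a cortex-labelled library was left out of the contrast, giving 263 and 145 without the vehicle one and 1000 and 711 without the RGFP109 one. The 2-fold counts in both treatments were 230 and 95 with 10 counts required in all 4 libraries and 833 and 390 with no filter beyond 1 count. The cause of these changes was not tested.

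No paired analysis was possible because the replicate number coincides with the tissue label within each treatment, so that it cannot enter as a block. For single genes, the log2 fold change changed sign when 1 library was left out, with ranges of Slc17a7 -0.19 to 0.43, Slc17a6 -0.15 to 0.50, Gad1 -2.24 to 0.085, Gad2 -1.02 to 0.52, Slc32a1 -1.03 to 0.51, Cux2 -0.039 to 0.51, Fezf2 -0.44 to 3.21, Tle4 -0.12 to 0.22, Rspo2 -1.35 to 2.99, Tshz1 -3.16 to 0.42, Cartpt -0.24 to 1.70, Crh -0.69 to 1.78, Sst -0.14 to 1.98, Th -6.48 to 2.21, Ptger2 -1.65 to 1.16, Trh -3.14 to 5.18, Gm14434 -3.28 to 2.58, Col24a1 -2.87 to 2.79. With the spread from 8 libraries it changed sign without the vehicle cortex library (Slc17a7 -0.18, Gad1 0.14, Gad2 0.57, Slc32a1 0.35, Fezf2 -0.55, Tle4 -0.051, Rspo2 -1.19, Tshz1 0.49, Sst -0.42, Th 1.66, Ptger2 0.56, Trh 5.24, Gm14434 3.46, Col24a1 2.84) and without the RGFP109 cortex library (Slc17a6 -0.041, Cux2 -0.054, Crh -0.41). It also changed sign for Rspo2 without treatment in the model (-0.43) and for Trh in DESeq2 (0.98). The 4 libraries leave 1 residual degree of freedom, and counts under 10 give little precision.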
